A study of Homo sapiens with 6 samples.

Results

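Cadherins are calcium-dependent adhesion molecules, and 8 of them that mark epithelial, mesenchymal, osteoblast or endothelial identity were followed here in a human osteoblastic line. They were chosen by name (CDH1, CDH2, CDH3, CDH4, CDH5, CDH6, CDH11 and CDH13) from the 35639 genes of the table, and all 8 passed the filter on low values that 20723 genes passed. The cells were hFOB 1.19, which derive from fetal bone-forming cells and grow without limit through an SV40 large T antigen that is active at the lower of their culture temperatures. The study concerns the H3.3-G34W histone mutation of giant cell tumour of bone. Bulk RNA of these cells was sequenced to look for molecules through which mutant osteoprogenitors act on osteoclasts. Cells were transduced with a lentiviral vector that was empty (EV), or that carried HA-tagged wild-type H3.3 (H3.3-WT, here WT) or HA-tagged H3.3-G34W (here G34W), were sorted in bulk for the dTomato reporter of that vector, and were kept at 34 °C until collection 15 days after transduction. There were 2 libraries in each of the 3 groups, and values are normalised estimated counts per gene, in which no depth is given.

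These were overexpression lines in which the human H3.3 genes were left in place, and the H3.3 coding sequence in the vector was that of the fly gene. The groups followed the library titles, since the labels' genotype entries swap WT and G34W, and every direction between these groups rests on the titles. The study's methods describe the RNA-seq libraries as duplicates and use the word replicate for separate wells in general, but do not say whether the 2 libraries of a group came from separate transductions. The p-values therefore measure only the spread between these libraries. EV replicate 1 was left out of the comparisons: 80.5% of genes were listed at 0 there, against 40.7% to 46.0% in the other 5 libraries, and 6 of the 8 cadherins were among them. Summed over genes, the values came to 41985190 in EV replicate 2, 40778682 and 48024590 in the WT replicates 1 and 2, and 38821143 and 44687077 in the G34W replicates 1 and 2.

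Classical cadherins bind like partners on neighbouring cells through their extracellular repeats. Their cytoplasmic tails bind p120 and beta catenins, and alpha catenin, bound to beta catenin, links them to the actin cytoskeleton. E-cadherin (CDH1) and P-cadherin (CDH3) are typical of epithelia, and human pluripotent stem cells also carry E-cadherin. N-cadherin (CDH2) and cadherin-11 (CDH11, first known as OB-cadherin) are the main cadherins of osteoblasts, and VE-cadherin (CDH5) marks endothelium.

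Among the 5 libraries compared, 1 stood apart from the rest. In G34W replicate 1, all 16 genes of a list of pluripotency markers exceeded the other 4 libraries by more than 1 on the log2(value + 1) scale. Of all genes tested, 7.51% did so. UTF1, DPPA2 and DPPA5 passed the filter on low values only through that library. The summed level of the 16 was 66862 there, against 1144 in EV replicate 2, 1002 and 1079 in WT replicates 1 and 2 and 968 in G34W replicate 2. The most abundant of them was POU5F1, at 19441 against 41.6 to 75.4 in the other 4 libraries, a gene whose near-identical pseudogenes make its level uncertain. The results below are therefore given with and without that library where it changes them.

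Both cadherins known as the main ones of osteoblasts, CDH2 and CDH11, were abundant. N-cadherin (CDH2) stood at 7005 in EV replicate 2, 6408 and 7407 in the WT libraries, and 6199 and 5876 in the G34W libraries. The gene lay high in all 5 libraries, and both G34W libraries were below both WT libraries and EV replicate 2, by little. CDH11 stood at 3374 in EV replicate 2, 2933 and 2870 in the WT libraries, and 2017 and 3044 in the G34W libraries. Here the G34W libraries lay on both sides of the WT pair, and G34W replicate 1 was the lowest of the 5. Without that library, CDH11 was the steadiest of the 8, with a coefficient of variation of 7.34% over the other 4 libraries, against 10.1% for CDH2. In bulk RNA, fewer cells of a type and less RNA per cell cannot be told apart.

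CDH2 lies at chr18:27932879-28177130 in GRCh38.p14, and it was the most abundant of the 8 per kb of transcript in every library. RefSeq gives 2 promoter windows for it, each from 250 bases before to 50 after a start. The window at the 5′ end of the gene is shown because CDH2 made up the largest share of the cadherin level. It reads on the minus strand of chr18:28177081-28177380, with the transcribed bases in capitals:

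CDH2: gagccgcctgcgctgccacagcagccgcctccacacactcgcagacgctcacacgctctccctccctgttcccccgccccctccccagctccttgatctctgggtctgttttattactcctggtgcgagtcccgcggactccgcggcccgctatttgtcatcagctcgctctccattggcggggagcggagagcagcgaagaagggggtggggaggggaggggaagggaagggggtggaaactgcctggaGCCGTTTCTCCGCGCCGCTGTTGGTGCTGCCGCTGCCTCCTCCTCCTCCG

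The window was 67.0% G and C. On either strand it held 0 copies of CANNTG, the E-box to which SNAI, ZEB and TWIST factors are known to bind, and so 0 copies of CACCTG or its complement CAGGTG, which are forms of it. Of 35116 RefSeq windows of 300 bases, 68.7% held CANNTG and 20.6% held CACCTG or CAGGTG. The other CDH2 window, at chr18:28036592-28036891, held 1 copy of CANNTG and 0 of CACCTG or CAGGTG. RefSeq windows were matched for 2 of the 8 cadherins, CDH2 and CDH4, and the CDH4 windows, both inside the gene, held 3 copies of CANNTG, 1 of them in the CAGGTG form, and 1 copy. A match is a description of letters and not a site, and a lack of one says only that these letters are not in that window.

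CDH13 (T-cadherin), which lacks a transmembrane and cytoplasmic part and is held by a lipid anchor, stood at 4262 in EV replicate 2, 4017 and 4943 in the WT libraries, and 3428 and 5199 in the G34W libraries. The G34W libraries were the lowest and the highest of the 5, so the groups overlapped. CDH4 (R-cadherin), a close relative of N-cadherin, stood at 1211 in EV replicate 2, 1013 and 1158 in the WT libraries, and 823 and 914 in the G34W libraries. CDH6 (K-cadherin), known from kidney, stood at 211 in EV replicate 2, 186 and 253 in the WT libraries, and 151 and 169 in the G34W libraries. For CDH4 and CDH6, as for CDH2, both G34W libraries lay below the other 3 libraries compared.

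The epithelial cadherins were low in 4 libraries and high in 1. E-cadherin (CDH1) stood at 60.9 in EV replicate 2, 51.5 and 39.9 in the WT libraries, 64.9 in G34W replicate 2 and 2104 in G34W replicate 1. P-cadherin (CDH3) stood at 121 in EV replicate 2, 113 and 54.4 in the WT libraries, 48.0 in G34W replicate 2 and 1401 in G34W replicate 1. Both were high in G34W replicate 1 alone, at 32.4 times (CDH1) and 11.5 times (CDH3) the highest of the other 4 libraries. Among those other 4 libraries CDH1 spanned 0.69 and CDH3 1.32 on the log2(value + 1) scale, and CDH3 was lower in G34W replicate 2 than in any other. CDH3 at chr16:68645310-68733771 and CDH1 at chr16:68737292-68835537 are neighbours, with 3520 bases between them, and 5 of the 8 genes are on chromosome 16 (CDH1, CDH3, CDH5, CDH11 and CDH13).

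VE-cadherin (CDH5) was near 0 throughout, at 8.67 in EV replicate 2, 6.61 and 0 in the WT libraries, and 10.9 and 3.01 in the G34W libraries. Its groups overlapped. WT replicate 2, with a listed 0, lay below the other 4 libraries by more than 1 on the log2 scale. Among the cadherins chosen by name, CDH5 was the only one lowered in 1 library alone in this way. In WT replicate 2, 3.11% of all genes were lowered alone. At such levels, differences between libraries were not interpretable for this gene.

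**Figure D1:**
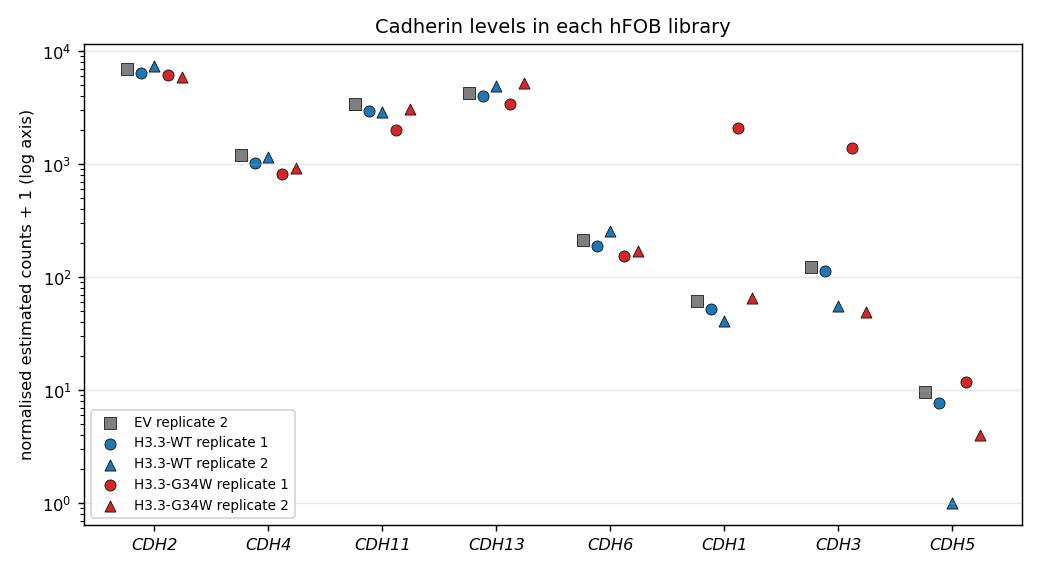
Normalised estimated counts plus 1 on a log axis for the 8 cadherins, with 1 point for each of the 5 libraries compared (grey square, EV; blue, WT; red, G34W; circles, replicate 1; triangles, replicate 2). CDH1 and CDH3 in G34W replicate 1, at 2104 and 1401, stand far above the other 4 libraries.

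2 of the 8 cadherins, CDH1 and CDH3, were raised in G34W replicate 1 alone by the margin of more than 1, against 7.51% of all genes tested (1557 of 20723). By the same rule, 0 of the 8 were raised in EV replicate 2 (1.65% of genes), G34W replicate 2 (1.05%), WT replicate 1 (2.47%) or WT replicate 2 (2.23%). Of the 8, 3 were highest in that library (CDH1, CDH3 and CDH5), against 21.1% of genes, and 4 were lowest in it (CDH4, CDH6, CDH11 and CDH13), against 37.1%. For the other libraries, the count of 0 raised among the 8 was thus near the share of all genes. G34W replicate 1 was also lower than the rest across all genes, with a median ratio to the 5-library mean of 0.894 (−0.16 on the log2 scale). The differences from the mean of the other 4 libraries were −0.37 for CDH4, −0.42 for CDH6, −0.60 for CDH11 and −0.42 for CDH13. These genes were picked as lowest in that library, so low values there follow from the choice. The median difference was −0.24 over the 8 cadherins and −0.17 over all genes tested.

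Compared per kb of the canonical transcript, the order of the cadherins was the same at its top in 4 libraries: CDH2, CDH13, CDH11 and then CDH4. In these libraries, CDH2 ranged from 1463 to 1844 per kb, CDH13 from 510.1 to 660.1, CDH11 from 427 to 502 and CDH4 from 137 to 181, and no range overlapped the next. Below them CDH6 (19.7 to 29.7 per kb) and CDH3 (10.8 to 27.3) overlapped, as did CDH3 and CDH1 (8.29 to 13.5), and CDH5 was last, at no more than 2.14. In G34W replicate 1 CDH1 (437 per kb) and CDH3 (315) entered among the abundant ones: CDH1 ranked 2 after CDH2 (1544), just above CDH13 (435), and CDH3 ranked 4, just above CDH11 (300.1). CDH1 ranked 7 in EV replicate 2 and both WT libraries, and 6 in G34W replicate 2.

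As shares of the summed level per kb of the 8 genes, CDH2, CDH4, CDH11 and CDH13 together made up 97.8% in EV replicate 2, 97.8% and 98.4% in the WT libraries, and 98.4% in G34W replicate 2. In G34W replicate 1 they made up 75.7%, and CDH1 and CDH3 together 23.7%, against 0.657% to 1.31% in the other 4 libraries. N-cadherin alone made up 48.6% there and 53.1% to 59.1% elsewhere. The level of CDH2 was 3.53 times that of CDH1 per kb in that library and 108 to 223 times in the others. CDH2 thus made up the largest share also in the library in which the epithelial cadherins were high. CDH4, CDH11 and CDH13 were at their lowest of the 5 libraries there.

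**Figure D2:**
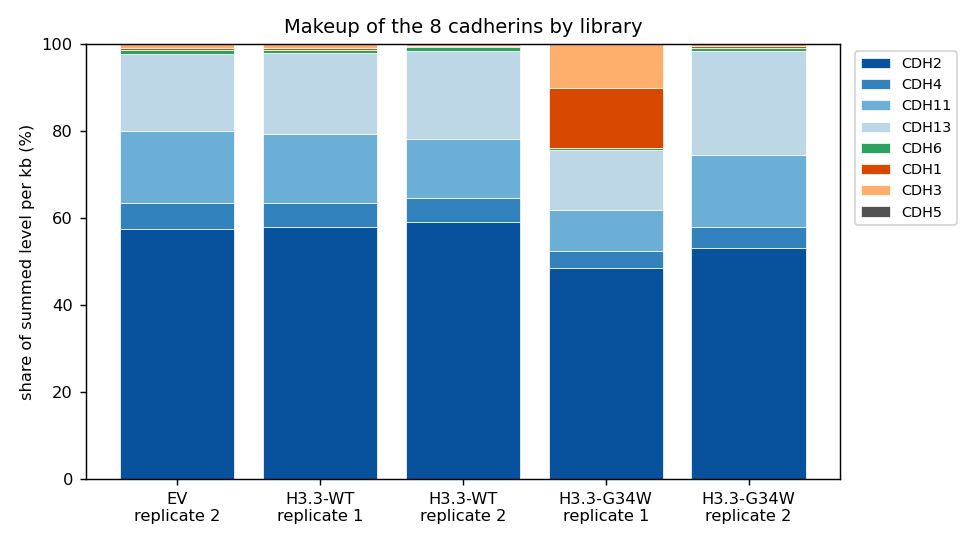
Share (%) of the summed level per kb of transcript taken by each of the 8 cadherins, with 1 bar for each library compared. CDH1 and CDH3 together take 23.7% in G34W replicate 1 and no more than 1.31% in the other libraries.

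The comparison of G34W with WT asks what the mutation adds to overexpression of the histone. Both G34W libraries were below both WT libraries for 3 of the 8 cadherins (CDH2, CDH4 and CDH6), against 14.3% of all genes tested, and above them for CDH1 alone, against 11.9%. The same 3 genes were also below EV replicate 2, against 8.96% of genes, a count that was added after the values were seen. After each library was rescaled to a median ratio of 1, the G34W and WT libraries overlapped for CDH2, which left CDH4 and CDH6. The mean level in G34W was 87.4% of that in WT for CDH2, 80.0% for CDH4 and 72.8% for CDH6.

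No cadherin passed the test. With limma on log2(value + 1) and Benjamini-Hochberg adjustment over 20723 genes, 0 genes were called between G34W and WT (0% of genes), and 482 had an unadjusted p under 0.05, 0 of the cadherins among them. For CDH4 the log2 fold change was −0.32 (SE 0.24, 95% interval −0.91 to 0.27), for CDH6 −0.44 (SE 0.39, −1.41 to 0.53) and for CDH2 −0.19 (SE 0.21, −0.70 to 0.32). These 3 intervals included 0. With each library left out in turn the value ranged from −0.66 to −0.22 for CDH6, from −0.30 to −0.086 for CDH2 and from −0.42 to −0.22 for CDH4, furthest from 0 without WT replicate 1 and nearest without WT replicate 2. CDH11 had −0.23 (SE 0.26, −0.88 to 0.42) and CDH13 −0.08 (SE 0.28, −0.76 to 0.61), and for both the sign turned without G34W replicate 1, to 0.07 and 0.22. That of CDH13 also turned without WT replicate 2, to 0.072. The adjusted p from limma was 0.999557 for each of the 8 genes.

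The epithelial cadherins had the largest estimates and the widest intervals. CDH1 had a log2 fold change of 3.01 (SE 1.54, −0.80 to 6.82), which was 0.51 without G34W replicate 1 and 5.51 without G34W replicate 2. CDH3 had 1.73 (SE 1.51, −2.02 to 5.47), which was −0.69 without G34W replicate 1 and 4.14 without G34W replicate 2. A single library therefore set both values. CDH5 had 1.32 (SE 1.33, −1.96 to 4.61), with its sign turned, to −0.14, without WT replicate 2, in which it was listed at 0. The median log2 fold change was −0.13 over the 8 cadherins and −0.05 over all genes tested.

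**Figure D3:**
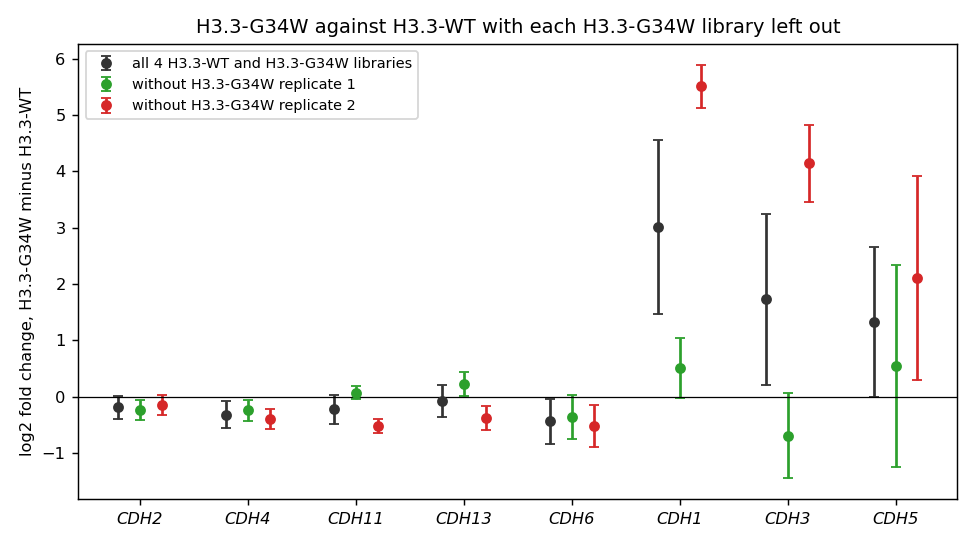
Log2 fold change of each cadherin, G34W minus WT, with bars of 1 standard error from limma, for all libraries (black), without G34W replicate 1 (green) and without G34W replicate 2 (red). CDH1 goes from 0.51 to 5.51 and CDH3 from −0.69 to 4.14 with the library left out. CDH2, CDH4 and CDH6 are below 0 in all 3 fits, as they must be where both G34W libraries lie below both WT libraries.

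The comparisons with the empty vector rest on EV replicate 2 alone, taken to vary like the other groups, and they share that library. With limma, 0 genes were called between G34W and EV (0% of genes, with 376 at an unadjusted p under 0.05) and 0 between WT and EV (0%, with 264). Of the 8 cadherins, 0 were among the unadjusted ones. The log2 fold changes of CDH4 were −0.48 (SE 0.29) for G34W and −0.16 (SE 0.29) for WT, and those of CDH11 −0.45 (SE 0.32) and −0.22 (SE 0.32). Without G34W replicate 1 the G34W value of CDH11 was −0.15, and without G34W replicate 2 it was −0.74. Those of CDH2 were −0.21 (SE 0.25) and −0.02 (SE 0.25). CDH1 had 2.59 (SE 1.89) for G34W and −0.42 (SE 1.89) for WT, and CDH3 1.10 (SE 1.86) and −0.63 (SE 1.86). All of these values with all libraries in the fit were within 2 standard errors of 0. Without G34W replicate 1 the G34W values were 0.091 for CDH1 and −1.32 for CDH3, and without G34W replicate 2 they were 5.09 and 3.52. Without WT replicate 1 or 2, the WT values were −0.60 or −0.24 for CDH1, −1.14 or −0.11 for CDH3 and −0.065 or −0.26 for CDH4. That of CDH2 was 0.08 or −0.13, so its sign turned. CDH5 had −1.81 (SE 1.63) for WT, and −3.27 or −0.35 in the same order. Over the 8 cadherins the median was −0.31 for G34W and −0.19 for WT, against −0.01 and 0.02 over all genes tested.

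Epithelial and pluripotency markers were high in the library in which CDH1 and CDH3 were high. All 20 epithelial markers were highest in G34W replicate 1 (21.1% of all genes), and 13 were raised there alone (7.51% of all genes). Of the 13, OVOL2 passed the filter on low values only through that library. The summed level of the 20 was 20559 in that library, 3051 in EV replicate 2, 2310 and 2269 in the WT libraries and 2592 in G34W replicate 2. CLDN6, a tight junction claudin, was the most abundant, at 8957 against 15.2 to 41.0, and EPCAM, an epithelial adhesion molecule, stood at 2175 against 9.97 to 46.6. The splicing regulator ESRP1 stood at 963 against 1.15 to 12.4. Between G34W and WT, limma called 0 of the 20 and 3 had an unadjusted p under 0.05 (EPCAM, OCLN and CDS1), against 2.33% of all genes. For these 3 both G34W libraries were above both WT libraries (11.9% of all genes), which a choice by that p makes likely. OCLN stood at 461 and 403 against 263 and 193, and CDS1 at 282 and 55.0 against 11.1 and 17.7. EV replicate 2 had 425 for OCLN and 46.6 for EPCAM, both above G34W replicate 2 (403 and 43.9), and 20.1 for CDS1. Limma also called 0 of the 16 pluripotency markers, with 0 at an unadjusted p under 0.05. The median difference of G34W replicate 1 from the mean of the other 4 libraries was 3.26 for the epithelial list and 5.40 for the pluripotency list, against −0.17 for all genes. In G34W replicate 2 the medians against EV and WT were −0.04 and −0.23. The 2 lists overlap in what they mark, since pluripotent cells also express CLDN6 and EPCAM. All 16 pluripotency markers were above 0 in G34W replicate 1, SOX2 at 1347 and NANOG at 2544 among them. The part of such cells in the levels of CDH1 and CDH3 was not tested.

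Of 10 neural markers tested, 6 were raised in G34W replicate 1 alone (OTX2, SOX3, FABP7, DCX, PAX6 and STMN2), against 7.51% of all genes. OTX2, at 541 against 0 to 1.80, passed the filter on low values only through that library. In WT replicate 1 alone 2 were raised (ELAVL3 and ELAVL4), against 2.47% of all genes. Between G34W and WT, limma called 0 of the 10, and 1 (DCX) had an unadjusted p under 0.05, against 2.33% of all genes. The summed level of the neural list, led by TUBB3, was 7248 in G34W replicate 1, 4194 in EV replicate 2, 3899 and 7408 in the WT libraries and 5939 in G34W replicate 2. Of 12 endothelial markers, 2 were raised in G34W replicate 1 alone, against 7.51% of all genes: KDR (656 against 26.6 to 78.3) and the transcription factor ERG (19.9), while PECAM1 stood at 66.1 against 40.4 to 92.0. Limma called 0 of the 12 endothelial and 0 of the 14 mesenchymal and osteoblast markers between G34W and WT, with 0 at an unadjusted p under 0.05. The endothelial sum, led by EGFL7, was 5934 there and 4941 to 6630 in the other libraries. The endothelial markers differed widely in level: EMCN stood at 10.6 to 22.4 and CLDN5 at 11.0 to 26.4 over the 5 libraries, while EGFL7, TEK and TIE1 were the 3 most abundant. CDH5 thus lay at the low end, with EMCN, CLDN5 and ERG.

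Of 14 mesenchymal and osteoblast markers tested, 6 were lowest in G34W replicate 1 (37.1% of all genes), 3 were highest there (21.1%), and 2 were raised there alone (7.51%), THY1 and the alkaline phosphatase ALPL. The shares lowest and highest were thus near those of all genes. VIM stood at 109267 in that library against 142133 to 233828, and COL1A1 at 24757 against 26425 to 43115. RUNX2, a transcription factor of early osteoblasts, stood at 236 against 387 to 573. The next most abundant after VIM were COL1A2, at 91016 against 90034 to 138799, and SPARC, at 73806 against 72998 to 85409. VIM, COL1A1 and RUNX2 were thus lowest in that library, and COL1A2 and SPARC were not. The summed level was 391251 there, against 471295 in EV replicate 2, 434345 and 578997 in the WT libraries and 500525 in G34W replicate 2. Markers of later osteoblasts differed among themselves in this line labelled osteoblastic and kept at its growth temperature. SP7 stood at 1.43 to 6.03, and IBSP at 2.50 in EV replicate 2 and 0 in the other 4 libraries. Osteocalcin (BGLAP) stood at 5.55 in EV replicate 2, 44.9 and 39.3 in the WT libraries, and 4.08 and 27.4 in the G34W libraries, and osteopontin (SPP1) at 171 to 649 over the 5 libraries. SP7 and IBSP were thus near 0, BGLAP was low and uneven, and SPP1 was not low.

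**Figure D4:**
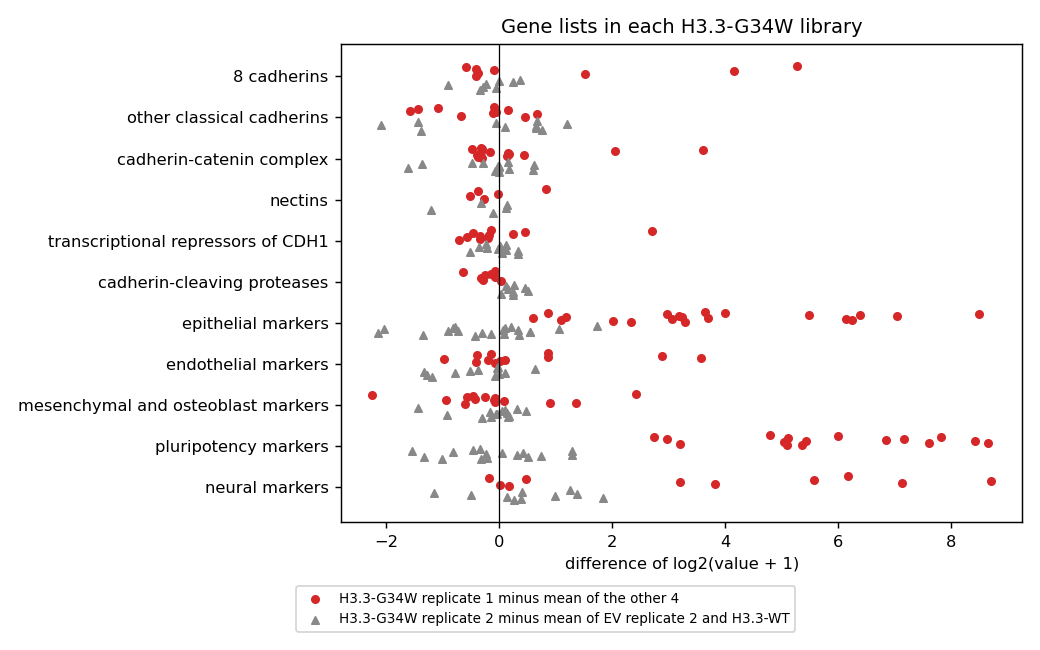
Difference on the log2(value + 1) scale for each gene of each list (1 point per gene, spread vertically only for legibility): G34W replicate 1 minus the mean of the other 4 libraries (red circles) and G34W replicate 2 minus the mean of EV replicate 2 and the WT libraries (grey triangles). The red points of the epithelial and pluripotency lists lie to the right of 0, with medians of 3.26 and 5.40, as do CDH1 and CDH3.

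Beta and alpha catenins link the cadherins to actin. Of 14 genes of the cadherin and catenin complex, all tested, 1 was raised in G34W replicate 1 alone, against 7.51% of all genes: CTNNA2, the alpha catenin of neurons, at 102 against 3.14 to 31.0. Of the low genes in the list, CTNND2 was raised in WT replicate 2 alone (84.7 against 12.2 to 33.5), against 2.23% of all genes. CTNNA3 was lowered in WT replicate 1 alone (1.44 against 5.47 to 30.7), against 1.48% of all genes. Single genes thus stood apart in the WT libraries too, though genes raised alone were most frequent in G34W replicate 1. Alpha-E-catenin (CTNNA1) stood at 37573 in EV replicate 2, 46757 and 45164 in the WT libraries, and 32975 and 35036 in the G34W libraries. Beta-catenin (CTNNB1) stood at 30433, 29179 and 40822, and 29627 and 32871 in the same order. CTNNA1 was thus lower in both G34W libraries than in the other 3, as were 8.96% of all genes, while CTNNB1 overlapped. With limma, 0 of the 14 were called between G34W and WT, and 0 had an unadjusted p under 0.05. These genes had a median log2 fold change of −0.15, against −0.05 for all genes.

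Of 11 transcription factors known to repress CDH1, all tested, 0 were called with limma and 0 had an unadjusted p under 0.05 between G34W and WT, with a median of −0.12. Of the 11, 1 was raised in G34W replicate 1 alone, against 7.51% of all genes: KLF8, at 216 against 23.6 to 42.7. ZEB2, 1 of the 3 most abundant with TCF3 and TCF4, stood at 1830 in EV replicate 2, 1997 and 2142 in the WT libraries, and 1285 and 2488 in the G34W libraries. The repressors were thus present in the library with high CDH1. There 5 of the 11, ZEB2 among them, were lowest (37.1% of all genes) and 2 were highest (21.1%), near the shares of all genes. Whether the repressors act on CDH1 in these cells was not tested.

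Of the 11 other classical cadherins, 10 were tested. Between G34W and WT, limma called 0 of them and 0 had an unadjusted p under 0.05, against 2.33% of all genes. In G34W replicate 1 alone 0 were raised, against 7.51% of all genes. CDH15 (M-cadherin), known from muscle, was lowered in that library alone, at 193 against 415 to 647 (2.63% of all genes). In EV replicate 2 alone, CDH12 and CDH19 were raised (1.65% of all genes) and CDH10 and CDH20 were lowered (1.64%). CDH24 was the most abundant, at 593 to 680 in the 5 libraries. Of 5 nectins, adhesion molecules that join at the same junctions, and of 8 proteases that cleave cadherins, 0 were raised in G34W replicate 1 alone (7.51% of all genes). Between G34W and WT, limma called 0 of them, with 0 at an unadjusted p under 0.05 (2.33% of all genes). In lists this short, counts of 0 lie near these shares. NECTIN2 and ADAM15 were the most abundant of these lists.

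Likeness of profile over the 5 libraries was the root mean square difference of centred log2 values, among 16258 genes with a mean of at least 10. The genes among the most like CDH1 were SHISA6 (0.19) and RAB17 (0.22). For CDH3 they were RIMS4 (0.17), CYP2S1 (0.24) and AMT (0.25). RAB17 stood at 761 in G34W replicate 1 against 12.3 to 17.0, and RIMS4 at 515 against 14.9 to 48.5. SHISA6, at 72.8 against 0 to 0.935, reached that mean only through G34W replicate 1. Over 5 libraries such likeness is set mainly by the 1 high library.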

How the data were processed

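Poly(A) RNA of hFOB 1.19 cells was sequenced in 6 libraries. The authors estimated transcript counts with kallisto on Ensembl GRCh38 models, brought them to gene level with tximport and normalised with DESeq2. The deposited values are this normalised signal, not whole reads, so no count test was run. Values were analysed as log2(value + 1) with limma 3.58.1 (R 4.3.3) with a variance trend, in 5 libraries with EV replicate 2 as its own group. Genes with a mean of at least 1 were tested with Benjamini-Hochberg adjustment at 0.05, and the fit was tested on simulated data. On this scale the fold changes of low genes come out too small. A gene was raised in 1 library alone when it exceeded the highest of the others by more than 1. Levels per kb used the canonical transcript length in GENCODE, and gene positions and promoters were those of RefSeq GRCh38.p14. Genes that could be named were the 8 members, the 3 most abundant genes of each list, those raised in 1 library alone and the 3 profiles most like CDH1 and CDH3, of which 1 is not reported here; other list genes were picked with their values known. The members and lists were chosen with earlier results of these data known. Figures were drawn with matplotlib 3.10.9.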

Additional observations from a re-analysis of the deposited data

Results flagged for a closer look

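E-cadherin was listed at 785.883 in EV replicate 1, the library left out of the comparisons, against 60.9 in EV replicate 2, a ratio of 12.9. It is given because it lies above the level in the other control library. The values of EV replicate 1 summed to 157595150 over all genes, against 41985190 in EV replicate 2. The ratio of the EV libraries was 22.5 for VCL, 22.7 for LIMA1, 25.1 for ZEB1, 18.5 for CTNND1, 51.3 for POU5F1, 50.1 for NANOG, 8.52 for LIN28A and 0.061 for CDH3 (listed at 7.38), and EPCAM was listed at 0 in EV replicate 1. These ratios do not share 1 scale. The cause was not tested.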

How the results depend on the processing

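No gene was called with limma in any of the comparisons under any alternative, with 110 (all 6 libraries) to 1999 (without G34W replicate 2) genes at an unadjusted p under 0.05 between G34W and WT. CDH1 was among those with a mean filter of 10, EV replicate 2 grouped with WT, or the replicate block, and 3 cadherins were without G34W replicate 2. With each library left out in turn, the log2 fold change ranged from −0.69 to 4.14 for CDH3 and from −0.14 to 2.79 for CDH5. It ranged from −0.52 to 0.069 for CDH11 and from −0.38 to 0.22 for CDH13, so all of these turned sign. For CDH1, CDH2, CDH4 and CDH6 the sign could not turn, since their G34W and WT libraries did not overlap. Without WT replicate 2, CDH6 was at −0.22 and CDH2 at −0.086. CDH1 and CDH3 were raised in G34W replicate 1 alone under every alternative to that rule, while the genes raised there numbered 981 with a mean of at least 10 and 897 with a margin of more than 2, against 1557, since fewer genes can pass. CDH5 was not tested with that filter on the mean. With the replicate block, 0 genes were called and 695 had an unadjusted p under 0.05, and CDH1 had a log2 fold change of 3.01 (SE 1.08, limma adjusted p 0.983). The study's methods do not say whether libraries of the same number were prepared together. The deviations of the same-numbered libraries correlated at 0.066 across genes. Among genes with a mean of at least 50, the median absolute log2 difference between WT and G34W was 0.320 for replicates 1 and 0.233 for replicates 2. It was 0.315 within WT and 0.368 within G34W. With 2 libraries against 2, an exact permutation test cannot go below a two-sided p of 0.333. Depth was not recovered, which limits what can be said of CDH5 and other low genes.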
